A study of Homo sapiens with 10 samples.

Results

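The peaks described here lie where a gene on the plus strand and a gene on the minus strand end against each other. They come from poly(A) 3′-seq of IMR-32, a human neuroblastoma cell line, and were chosen by position alone. A peak was a member when its summit fell at once inside the end window of a plus-strand and of a minus-strand protein-coding gene, a stretch that starts 200 bp before an annotated transcript end and stops 600 bp after it. Of 178837 peaks in the list, 1323 were members. Another 27349 peaks fell in end windows of protein-coding genes of 1 strand only, and these 1-strand peaks are used below for comparison.

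The RNA came from IMR-32 cultures that carried pLKO.1 lentiviral hairpins and were selected with puromycin. Hairpins against CDK12 (sh22 and sh98), against CDK13 (sh701 and sh704) and against GFP as a control (shGFP) were each represented by 2 libraries, 10 in all. Both kinases phosphorylate the tail of RNA polymerase II during elongation. The reads of all 10 libraries were pooled before peaks were found, so each value below is a single pooled value with no replicate and no strand, and the knockdowns could not be compared with the control.

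The 3′ end of an mRNA is made by cutting the growing RNA and adding a poly(A) tail. The CPSF complex, working with CstF, recognises a hexamer, most often AATAAA or its variant ATTAAA, and the cut falls a short way downstream of it. Where convergent genes overlap, the same DNA carries the terminal exon of one gene on one strand and that of its neighbour on the other, and each strand needs its own hexamer. A 3′-seq read marks the stretch just upstream of the tail, so a plus-strand gene leaves reads to the left of its end and a minus-strand gene leaves reads to the right of its end.

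In some members each edge had an annotated end and, starting 10 to 40 bases upstream, a core signal, AATAAA or ATTAAA. Not every member with an annotated end at each edge had both signals. The list has no strand, so the reads of such a member were not assigned to either gene. Where the ends overlap by about 100 bp, extended reads of 1 gene alone would span both ends. Among pairs with a member that had both signals, the 5 with the smallest summed distance of both edges to annotated ends are shown, 1 window per strand. Their signals and the nearness of their edges to annotated ends are thus by choice. Positions are GRCh38, each run is written 5′ to 3′ on the strand of the gene named, and capitals mark the core signal.
MINK1 (chr17:4898031-4898060, plus strand): ttAATAAAgacaattcaaccagctcccacc
CHRNE (chr17:4897763-4897792, minus strand): tcATTAAAgtgctttcagaaaatgaagaaa
ALKBH7 (chr19:6375231-6375260, plus strand): ccAATAAAtaagtcagccgagctcccccag
PSPN (chr19:6375144-6375173, minus strand): gcAATAAAggacaccactctcccggccttg
FANCI (chr15:89316453-89316482, plus strand): aaAATAAAtgaaatgcctgagttaatgtga
POLG (chr15:89316313-89316342, minus strand): gaAATAAAaagaaggaaaaaaaagactcta
INO80E (chr16:30005770-30005799, plus strand): gtATTAAAggagtggctctgggtttgtttt
DOC2A (chr16:30005505-30005534, minus strand): tcAATAAAcacctccgaggaagctggactc
EIF3J (chr15:44562779-44562808, plus strand): taATTAAAtttctttgaaactggaatctgc
SPG11 (chr15:44562690-44562719, minus strand): gtAATAAAatagattttcaattcagtgtat

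In the ALKBH7/PSPN member, the right edge lay 2 bp past an annotated ALKBH7 end and the left edge exactly at a PSPN end. ALKBH7 encodes a mitochondrial dioxygenase-family protein and PSPN the neurotrophic factor persephin. The member spanned chr19:6375148-6375252, 105 bp, of which the annotated ends shared 103 bp, and its pileup was 24 extended reads. The signals started 19 bases upstream of the right edge on the plus strand and 23 bases upstream of the left edge on the minus strand. The FANCI/POLG member, between a gene of the Fanconi anaemia DNA crosslink repair pathway and that of the mitochondrial DNA polymerase, was higher, with a pileup of 63 over 179 bp. Its signals started 29 and 34 bases from its edges, and the annotated ends overlapped by 177 bp.

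The INO80E/DOC2A member reached from end to end of the overlap. It was 284 bp wide with a pileup of 31, against 280 bp shared by the annotated ends, and its edges lay 2 bp past each end. INO80E is a subunit of a chromatin remodeller and DOC2A a calcium sensor of neurons. The EIF3J/SPG11 member was 103 bp wide, with a pileup of 28. The annotated ends of EIF3J, a translation initiation factor gene, and SPG11 overlapped by 107 bp. The MINK1/CHRNE member had the lowest pileup of the 5, 13 over 292 bp, although its edges lay 1 and 0 bp from annotated ends of the kinase MINK1 and of the acetylcholine receptor subunit CHRNE. By the measure of coverage used below it counted for MINK1 only, since its summit lay outside the window of that CHRNE end.

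Some of the strongest members held core signals of both strands inside the peak, close together. Sequences are shown for those pairs among the 10 highest by pileup in which opposed core signals fell within 30 bases, a choice made after the values were seen. Capitals mark the signals as they read on the plus strand, so a minus-strand AATAAA appears as TTTATT and a minus-strand ATTAAA as TTTAAT. In PCBP2/MAP3K12 the opposed signals shared bases and appear as 1 run of capitals. Opposed signals were counted anywhere inside the peak, so a marked signal need not belong to an annotated end of the gene named. The minus-strand signal of PCBP2/MAP3K12 lay past the annotated MAP3K12 end at 53479669, not upstream of it. That of POLR2C/DOK4 lay farther upstream of the DOK4 end at 57471922 than the range used above. In INPPL1/PHOX2A both signals lay within that range of a covered end.
INPPL1/PHOX2A (chr11:72239078-72239107, plus strand): gtcttcAATAAAttaagtTTTATTtggatt
PCBP2/MAP3K12 (chr12:53479584-53479605, plus strand): tgatttTTTAATTAAAgcgttt
POLR2C/DOK4 (chr16:57471969-57471998, plus strand): aaagtgTTTATTtttggcAATAAAgagcac

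Opposed core signals within 30 bases occurred inside 216 of 1323 members (16.3%, 95% Wilson interval 14.4% to 18.4%) and inside 12.2% (11.8% to 12.6%) of 1-strand peaks, which were narrower. In 157 of the 216 members the minus-strand signal lay to the left, as in POLR2C/DOK4, and in 59 the plus-strand signal did, as in INPPL1/PHOX2A. These intervals, like all below, cover counting error only.

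The members formed 1031 pairs of 1996 genes. In 984 pairs (95.4%, 94.0% to 96.6%) the genes were tail to tail, in 25 the minus-strand gene lay inside the plus-strand gene, and in 22 the reverse held. By the canonical transcript of each gene, the ends overlapped in 500 of the 984 tail-to-tail pairs, with a median overlap of 278 bp, and were apart in 484, with a median gap of 275.5 bp. A single member was found in 713 pairs, 2 in 284, 3 in 26 and 4 in 8. Of 1572 pairs of protein-coding genes with meeting end windows, 65.6% held a member. Some chromosomes held a larger part of the members than of the 1-strand peaks. Chromosome 11 held 8.47% against 5.002%, chromosome 16 held 8.16% against 4.19%, chromosome 17 held 8.84% against 5.86% and chromosome 19 held 8.09% against 5.59%, whereas chromosome 4 held 1.97% against 3.99%.

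Members were higher and wider than 1-strand peaks. The pileup, the number of reads extended to 100 bp that cover the summit, had a median of 24 in members (10th to 90th percentile 12 to 49, range 4 to 114) and of 16 in 1-strand peaks (7 to 34, range 3 to 94). The median width was 151 bp against 116 bp, and 34.1% of members against 21.5% of 1-strand peaks were wider than 200 bp. The −log10 q-value was 20 or higher for 46.2% of members (43.5% to 48.9%) and 24.7% of 1-strand peaks (24.1% to 25.2%). Among all peaks on the chromosomes the share was 7.19%.

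The higher pileup was present at each width. Among peaks of 100 to 120 bp the median was 17 in 481 members and 12 in 14863 1-strand peaks. At 151 to 200 bp the medians were 31 and 23, and above 300 bp they were 36 and 29. The border of the window made no visible step in level. The 101 members with summits within 50 bp inside a border had a median pileup of 22, and the 102 peaks that windows 50 bp longer would have added had a median of 21. Of these 102, 101 were 1-strand peaks, also with a median of 21, against 16 for all 1-strand peaks. Thus 1-strand peaks just outside the border were about as high as members just inside it.

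**Figure D1:**
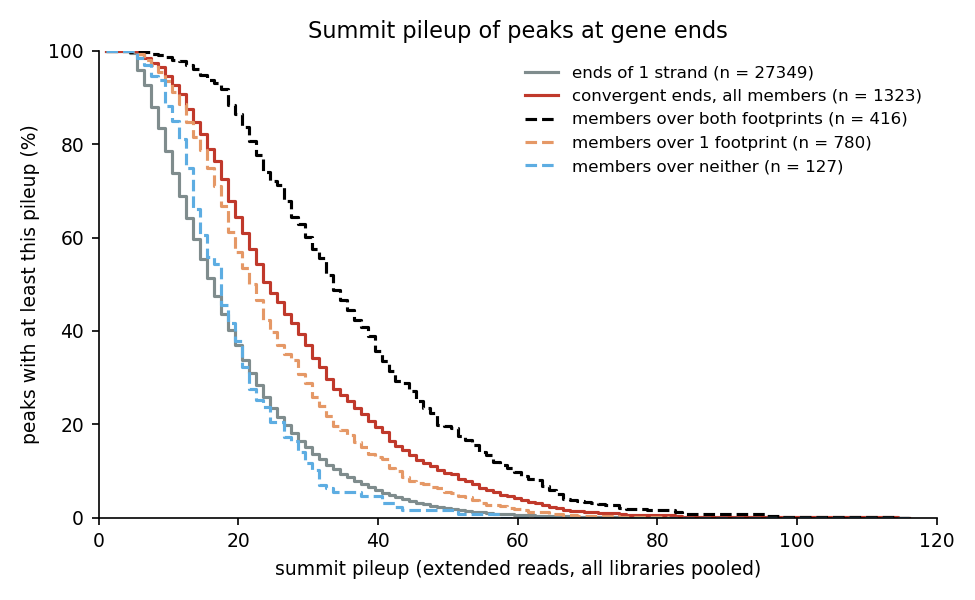
Share of peaks (y axis, %) with at least a given summit pileup (x axis, extended reads of all libraries pooled), for 1-strand peaks, all members, and members split by whether the peak covers the 100 bp footprint of annotated ends on both strands, 1 strand or neither. The curve of members over both footprints (median 33) lies to the right of that of members over 1 footprint, and the curve of members over neither (median 17) runs near that of all 1-strand peaks (median 16), whose peaks without a covered footprint have a median of 12.

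Whether a member held the ends of both genes was read from its interval. A transcript end should leave a footprint over the 100 bp upstream of it, and a footprint was counted as covered when the peak reached over it to within 25 bp at each side. Among 1-strand peaks 69.1% covered the footprint of an end of their gene, whereas 19.04% covered the mirrored 100 bp downstream of such an end. In members the mirrored stretch was covered more often, at 34.3% for the plus strand, 33.0% for the minus strand and 21.3% (19.2% to 23.6%) for both. Among members 416 (31.4%, 29% to 34%) covered the footprints of both strands, 390 that of the plus strand only, 390 that of the minus strand only, and 127 neither. The share over both footprints, 31.4%, thus stands beside 21.3% for the mirrored stretches. In a convergent pair the stretch past 1 end can hold the footprint of the partner, so the 21.3% is not a background rate.

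Members that covered both footprints had a median pileup of 33, against 21 and 22 for those over a plus-strand or a minus-strand footprint alone and 17 for those over neither. Among 1-strand peaks the median was 18 where the footprint was covered and 12 where it was not, below the members over 1 and over neither. The median width of members over both footprints was 236.5 bp, against 121, 121 and 109 bp for the other classes of members. Width is part of how footprints were counted, so the widths are a description of the classes. A core signal 10 to 40 bases upstream of a covered end was present on the plus strand in 73.1% of the 416 members, on the minus strand in 74.8%, on both in 56.7% (51.9% to 61.4%) and on neither in 8.89%. For covered ends of 1-strand peaks the share was 67.9% (67.2% to 68.6%). A signal at any covered end was counted, and wider peaks can cover more ends. The 1-strand peaks with a covered footprint had a median width of 122 bp, so these shares are not on an equal footing.

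The distance between the canonical ends of a pair went with both readouts. Members of pairs with ends at least 300 bp, 200 to 299 bp and 100 to 199 bp apart had median pileups of 21, 22 and 21. The median was 26 for gaps of up to 99 bp and for overlaps of 1 to 50 bp. It was 32 for overlaps of 51 to 100 bp and 33 for overlaps of 101 to 200 bp. Above 200 bp it was 26 for 201 to 400 bp, 29 for 401 to 1000 bp and 23 beyond. Footprints of 100 bp share bases at overlaps between 1 and 199 bp and coincide at 100 bp. Near that overlap a peak of 1 gene alone can count as covering both footprints, so the share over both is in part set by the rule. The share of members over both footprints was 7.76% at gaps of 100 to 199 bp, 51.2% at gaps under 100 bp, 75% (64.5% to 83.2%) at overlaps of 101 to 200 bp and 27.5% (22.3% to 33.3%) at overlaps over 1000 bp. Expression of the genes was not measured apart from these peaks, and its part in the differences was not tested.

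**Figure D2:**
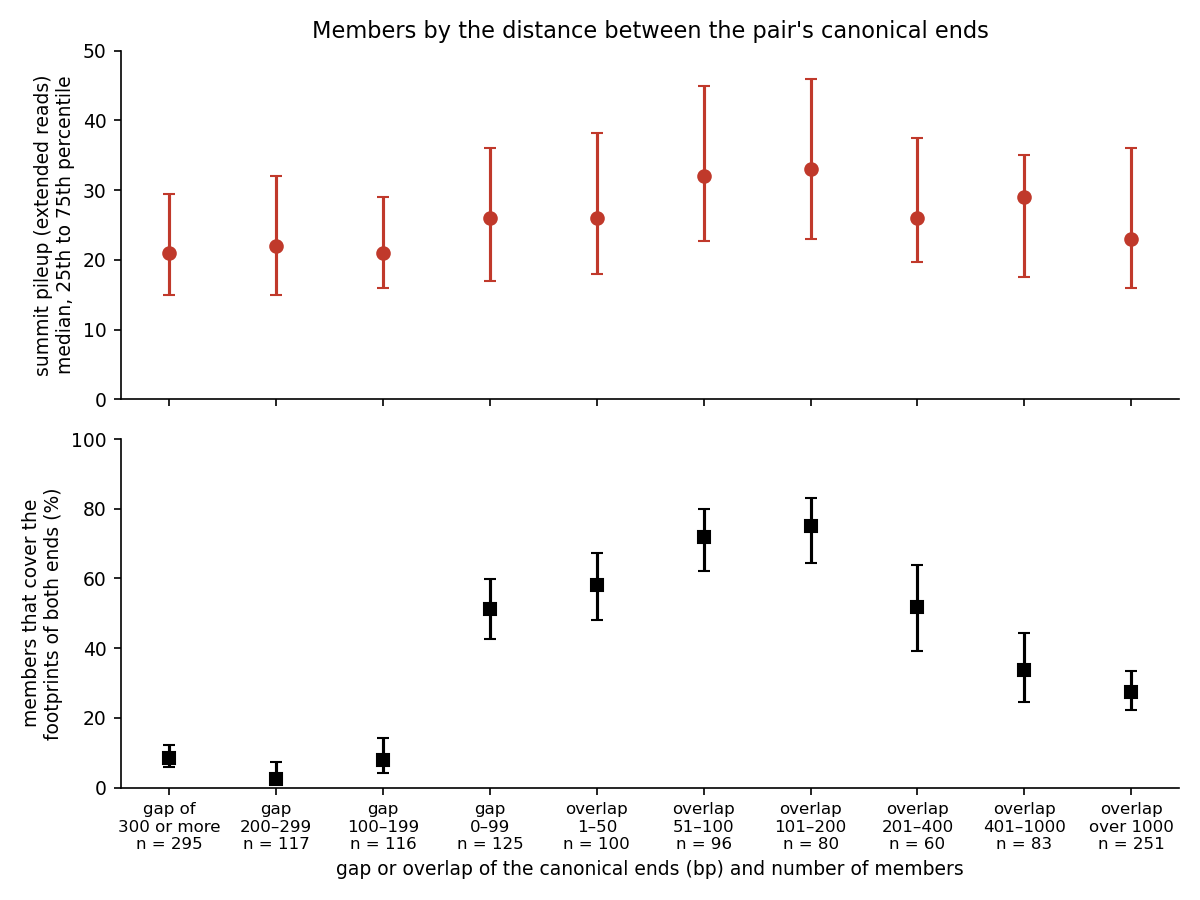
Upper panel, summit pileup of members (median, with bars from the 25th to the 75th percentile, extended reads); lower panel, share of members that cover the footprints of both ends (%, bars are 95% Wilson intervals), by the gap or overlap of the canonical ends of their pair in bp. The median pileup is 21 or 22 at gaps of 100 bp or more and 33 at overlaps of 101 to 200 bp, where the share is also highest at 75%.

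The edges of members carried signals of either gene more often than of both. A core signal 10 to 40 bases upstream of the right edge was found on the plus strand in 26.7% of members, and upstream of the left edge on the minus strand in 29.1%. Both were found in 65 members (4.91%, 3.87% to 6.21%), 1 alone in 46.0% and neither in 49.1%. Among 1-strand peaks the signal was found on the strand of the gene in 50.3%, on the opposite strand in 7.60%, and on both in 3.74%. For 1-strand peaks with a signal on a single strand, that strand was the gene's in 92.3%.

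The signals stood at nearly the same distance as at other gene ends. In members they started most often 20 bases upstream of the edge on the plus strand and 21 on the minus strand, and in 1-strand peaks 22 bases upstream. AATAAA made up 70.5% of the plus-strand and 77.1% of the minus-strand signals nearest to an edge. Counting any of the 12 hexamers listed in the study's methods within 100 bases of the edge gave both strands in 45.1% of members and 45.9% of 1-strand peaks (95% intervals 42.5% to 47.8% and 45.3% to 46.5%).

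**Figure D3:**
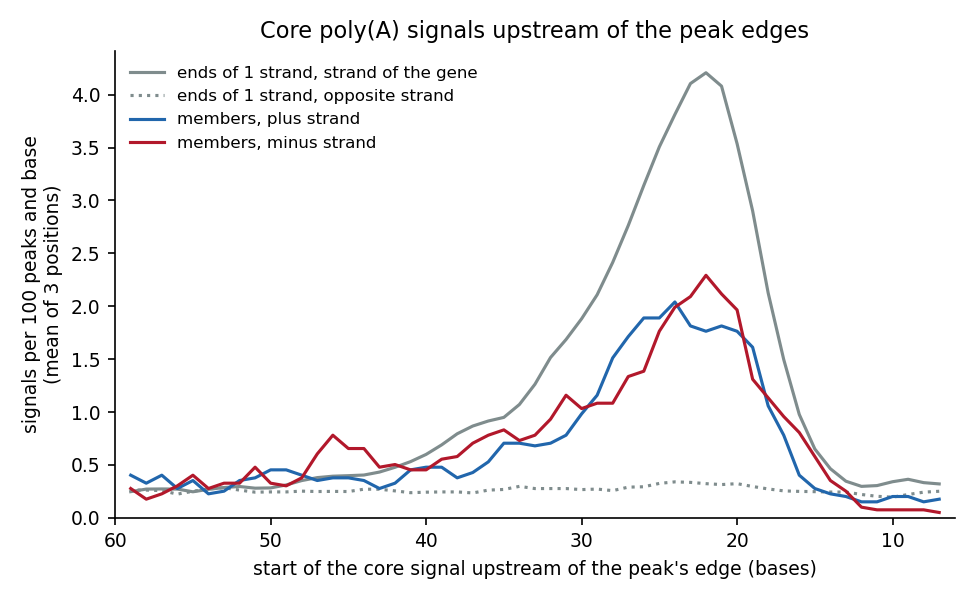
Core signals (AATAAA or ATTAAA) per 100 peaks and base (y axis, running mean of 3 positions) by the distance of their start upstream of the peak's edge (x axis, bases), for the plus and the minus strand of members and for both strands of 1-strand peaks. Both strands of members have a maximum between 20 and 25 bases, lower than that of the gene's strand of 1-strand peaks, whose opposite strand stays flat. The strand of a member's reads is not known, so the heights of these maxima are not on an equal footing.

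Edges met annotated ends about as often on each strand. The right edge lay within 25 bp of an annotated plus-strand end in 30.8% of members and the left edge within 25 bp of a minus-strand end in 32.8%. Both did in 62 members (4.69%, 3.67% to 5.96%) and neither in 41.0%. For 1-strand peaks the edge on the gene's side did so in 56.9%. Stretches of A past the edge, at which oligo(dT) can prime inside a transcript, were rare. At least 7 A in the 10 bases past the edge occurred in 3.55% of members on the plus strand and 4.23% on the minus strand, against 21.7% of 1-strand peaks on the gene's strand and 4.42% on the opposite strand. The strand of a member's reads is not known, so the shares per strand are not on an equal footing. Such a stretch was found on 1 strand only in 7.48% of members and on both in 0.151%.

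The highest member was INPPL1/PHOX2A. PHOX2A is a homeobox factor of noradrenergic neurons, the lineage of neuroblastoma, and INPPL1 encodes an inositol phosphatase. The peak at chr11:72238839-72239215 (377 bp) had a pileup of 114 over a background of 4.27, and a −log10 q-value of 110. It lay over PHOX2A's end at 72239077 and over INPPL1 ends at 72239105 and 72239147. If 1 read was kept per position and strand, the MACS2 default, which the study's methods do not state, then with reads of 100 bp reads of a single strand cannot reach a pileup above 100. A pileup above 100 was found in 1 member, in none of the 27349 1-strand peaks and in 9 of all chromosomal peaks. Neither gene had a 1-strand peak, and the pair's other member, over an upstream INPPL1 end, had a pileup of 15.

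The next 10 pairs had pileups of 75 to 97, and in 8 of them the strongest member covered both footprints. PCBP2/MAP3K12 had 97 across 573 bp, where an RNA-binding protein gene meets that of a stress-activated neuronal kinase. ACAT2/TCP1, a thiolase and a chaperonin subunit, had 95 across 453 bp. PMPCB/DNAJC2, a mitochondrial processing peptidase and a ribosome-associated chaperone, had 83 across 410 bp.

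ESRRA/TRMT112 and MAPK7/MFAP4 had 82 each. The first joins a nuclear receptor and a methyltransferase activator, the second the kinase ERK5 and a microfibril protein. POLR2C/DOK4, a subunit of RNA polymerase II and a docking protein, had 75 in 183 bp. ESRRA/TRMT112 and MAPK7/MFAP4 had a single member each, and neither gene of these pairs had a 1-strand peak. The exceptions were ATG10/RPS23 and DDX42/FTSJ3. The ATG10/RPS23 peak, at 81, lay over ends of the ribosomal protein gene RPS23 and over no footprint of the autophagy gene ATG10. DDX42/FTSJ3, which tied with POLR2C/DOK4 at 75 and was named after its values were seen, lay over ends of the helicase gene DDX42 alone.

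In 271 pairs each gene also had a 1-strand peak of its own. The strongest member was above the highest 1-strand peak of both genes in 131 of them (48.3%) and below both in 39 (14.4%). In 310 pairs neither gene had a 1-strand peak, so the end signal of these genes in the list lay in members. For these pairs the reads of the partners cannot be told apart.

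The highest number of members was 4, in 8 pairs, and the 5 of these with the highest −log10 q-values are described. In PCBP2/MAP3K12 the other members had pileups of 32, 29 and 25. IAH1/ADAM17, an esterase and a membrane sheddase, had 74, 20, 18 and 18. The highest of these covered both footprints, the second lay over ADAM17 ends alone, and of the pair at 18 the first lay over an IAH1 end and the last over ends of both genes. SON/DONSON, a splicing cofactor and a replication factor, had 64, 23, 22 and 18, and PPP6R2/SBF1, a phosphatase subunit and a myotubularin-related protein, had 56, 28, 27 and 17. In PPP6R2/SBF1 the member of 27 had a core signal and an annotated end at each edge. SLC2A4RG/ZBTB46, which encode transcription factors, had 37, 21, 21 and 18, of which none covered footprints of both genes. The member of 37 and 1 of those at 21 lay over ZBTB46 ends, and the others lay over SLC2A4RG ends.

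**Figure D4:**
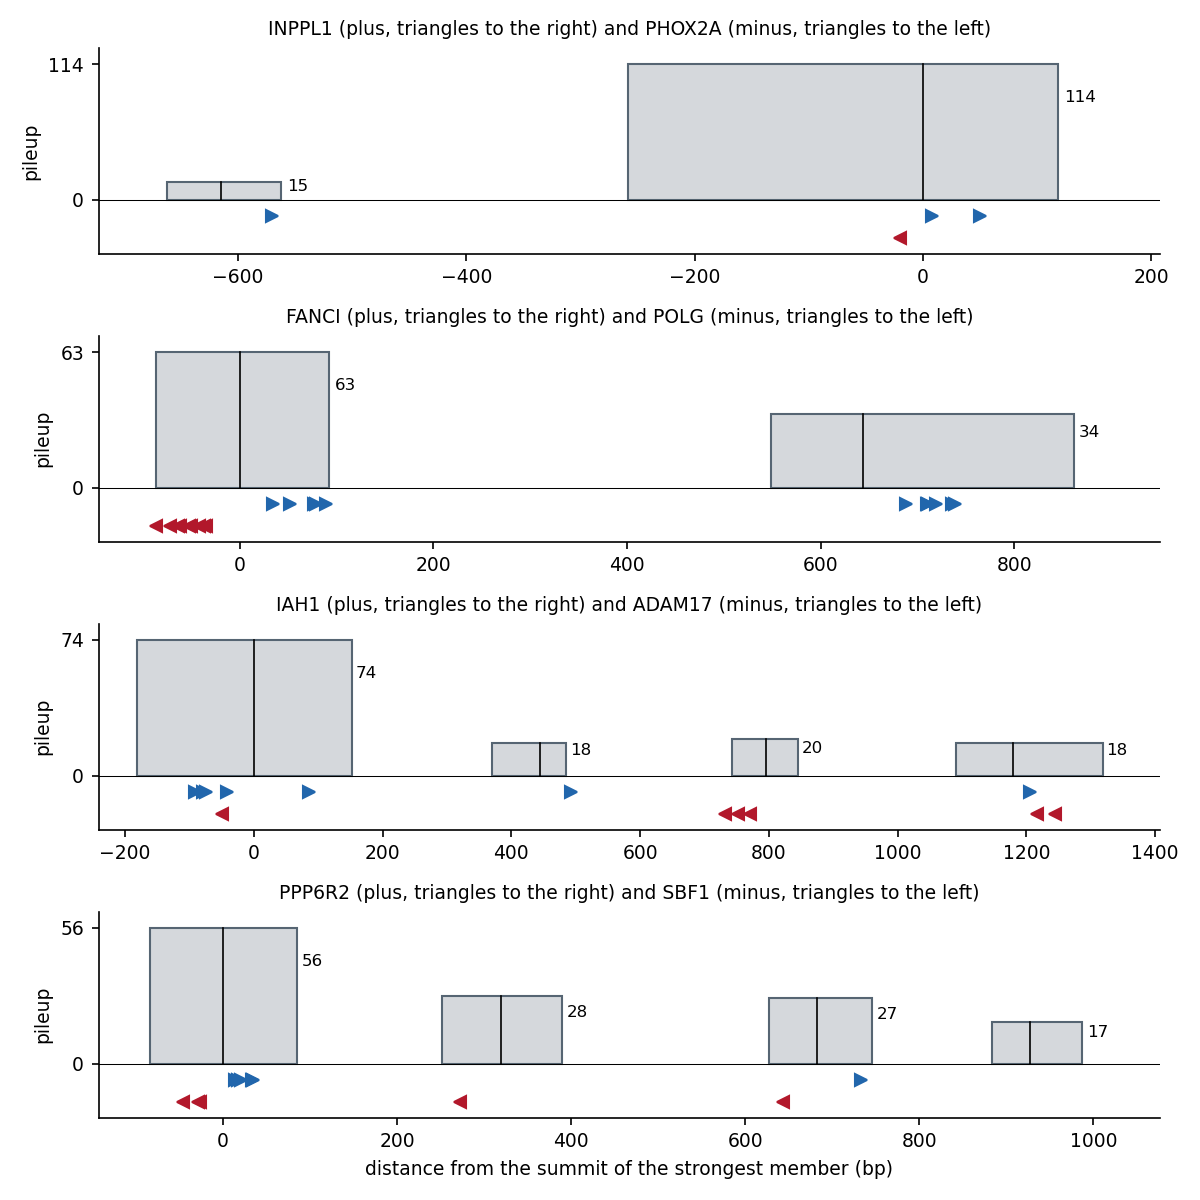
Members of 4 pairs drawn as boxes from start to end with the summit pileup as height (y axis, extended reads) against the distance from the summit of the strongest member (x axis, bp); triangles below mark annotated ends of the plus-strand (to the right) and minus-strand gene (to the left) whose footprints the members cover, and the vertical lines mark summits. The strongest member of each pair lies over ends of both genes (pileups 114, 63, 74 and 56), and several weaker members lie over ends of 1 gene.

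Genes of the DNA damage response, the group on which the study centred, were found among the pairs. Of 147 genes of the study's list with a peak at an end, 35 (23.8%, 17.7% to 31.3%) were in a pair with a member, against 1996 of all 13757 protein-coding genes with such a peak (14.5%, 13.9% to 15.1%). The 44 members of these genes had a median pileup of 32, against 24 for all members. Both footprints were covered by 16 of the 44, beside 416 of all 1323 members (31.4%). MUS81/EFEMP2 was highest at 72, and neither the nuclease gene MUS81 nor EFEMP2, which encodes an extracellular matrix fibulin, had a 1-strand peak. MPG/NPRL3, a base excision glycosylase and a regulator of mTORC1, had 63 in 178 bp, and FANCI/POLG had 63 and 34. The Fanconi gene FANCA shared a member of 57 with ZNF276. No test was made of the share, and the list was compiled by the study.

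Other repair genes, named after their values were seen, ran from strong to weak members. OGG1/CAMK1, with the 8-oxoguanine glycosylase, had 39 and covered both ends, whose canonical overlap was 61 bp. MSH6/FBXO11, with a mismatch repair gene, had 36 with an overlap of 34 bp. BRCA2/N4BP2L1 had 25 and covered an end of the recombination gene BRCA2 alone. APEX2/ALAS2 had a pileup of 8.

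Among transcription kinases and elongation factors, 13 of 48 genes with an end peak were in pairs (27.1%, 16.6% to 41.0%), against 14.5% of all genes. Their 17 members had a median pileup of 30, against 24 for all members. POLR2C/DOK4 led with 75. RPGRIP1/SUPT16H had 61 and LEAP2/AFF4 had 54, each over the minus-strand end alone, which belongs to a FACT subunit and to a scaffold of the super elongation complex. SAMD4B/PAF1, with a subunit of the PAF1 complex, had 48 over both. Of 42 cleavage, polyadenylation and termination genes 7 were in pairs (16.7%, 8.32% to 30.6%), near the 14.5% of all genes. INTS8/CCNE2, with an Integrator subunit and a cyclin, had 61 over both ends, and HACD3/INTS14 had 44 and 38. RAD9A/PPP1CA had 29, and FIP1L1/LNX1, with a polyadenylation factor, had 28 and covered neither footprint.

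Splicing and U1 snRNP genes were in pairs in 7 of 45 cases (15.6%, 7.75% to 28.8%), near the 14.5% of all genes. Their highest members lay over the splicing gene's end alone, at 60 in PCYOX1/SNRPG, 47 in METTL23/SRSF2, 41 in NFE2L3/HNRNPA2B1 and 41 in PTBP1/PLPPR3. Ribosomal protein genes had a median pileup of 42.5 over 24 members, with 18 of 85 genes in pairs (21.2%, 13.8% to 31.0%). After ATG10/RPS23 came RPL7A/SURF1 with 74 and RPL7L1/C6orf226 with 68, over the ribosomal or ribosome-like gene alone, and NDUFB10/RPS2 with 67 over both. Mitochondrial ribosomal protein genes were in pairs in 13 of 77 cases (16.9%, 10.1% to 26.8%), near the share of all genes. MRPL37/SSBP3 had 70, MRPS7/MIF4GD 65 and MRPL49/SYVN1 54, each over both ends, and CACYBP/MRPS14 had 57 over neither footprint. MRPL49 lay inside the annotated SYVN1 gene.

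Against 14.5% of all genes, genes of the respiratory chain were in pairs in 11 of 92 cases (11.96%, 6.81% to 20.2%). Besides NDUFB10/RPS2 they included UQCRC2/PDZD9 at 38, over UQCRC2 ends alone, and TMCO6/NDUFA2 at 33, over ends of both genes. TMCO6 lay inside the annotated NDUFA2 gene. In SHMT2/NDUFA4L2 the peak of 36 lay over ends of SHMT2, which is not a gene of the chain, and over no footprint of NDUFA4L2. Zinc finger genes named ZNF, many of which stand in clusters, were in pairs in 20 of 442 cases (4.53%, 2.95% to 6.89%), a share below that of all genes. SNX17/ZNF513 had 65, ZNF276/FANCA 57, ARHGEF40/ZNF219 48 and CAPN3/ZNF106 38, all over both ends. Of 28 genes of neuroblastoma and neuronal identity PHOX2A alone was in a pair (3.57%, 0.633% to 17.7%). This interval includes the 14.5% of all genes.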

How the data were processed

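Poly(A) 3′-seq libraries (QuantSeq REV) of 10 IMR-32 cultures were reported as a single list of peaks. The authors trimmed the reads, aligned them with STAR 2.5.1b to GRCh38, downsampled the libraries, which came from different batches, to the smallest, merged them and found peaks with MACS2 2.1.1 and reads extended to 100 bp. Each peak has a fold ratio of its summit pileup to the local background, deposited by the authors with the −log10 p-value of that pileup. The score column deposited by the authors is the −log10 q-value, and another deposited column gives the position of the summit in the peak. Strand and values of single libraries are absent from the list, so depth per library, batches, replicates and groups were not analysed here, and no test was made.

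Pileup and background at the summit were worked out from each peak's fold and p-value. The deposited −log10 p-value was met within 0.000168, whereas the next best whole pileup missed by a median of 0.078. MACS2 by default keeps a single read per position and strand. The methods do not state this setting, but the highest pileup in the list was 200, the most it allows with 100 bp reads. With it, pileup counts distinct positions and flattens for abundant transcripts.

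Peaks were annotated on chromosomes 1 to 22, X and Y with GENCODE 44 transcripts of protein-coding genes, on the same build as the peaks. No peak ended past a chromosome of the reference. A gene pair was counted for each combination of genes whose windows held a summit, and members of more than 1 pair (1256 were in 1) were placed at the nearest pair of canonical ends. Sequence was read from the GRCh38 reference, and hexamers were searched on both strands. Footprints were counted for ends whose windows held the summit. Shares have 95% Wilson intervals. Python 3.11.15, pandas 2.3.3, scipy 1.17.1 and pysam 0.24.0 were used. The recovery of pileups, the rule for members and the search for hexamers were checked on simulated data, and the other steps were not.

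The rule for members, the gene lists and the questions were chosen with earlier results of these data known. The DNA damage response list was taken from the study's supplement (its 162 names gave 150 different protein-coding genes, older names through RefSeq synonyms). Pairs were named by a fixed rule: the 10 with the highest pileup, the 5 with the most members, the 5 with core signals on both strands and edges nearest to annotated ends, and up to 4 per gene list by pileup. Ties, which arose for the number of members and at the 10th pileup, went to the higher −log10 q-value. Some pairs that this rule names are not reported here. The coverage of footprints, the opposed signals and the sequences of the latter were added after the data were seen.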

Additional observations from a re-analysis of the deposited data

How the results depend on the processing

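With only peaks of a −log10 q-value of 20 or more, 611 members were left, with a median pileup of 37 (31 in 1-strand peaks) and 47.95% over both footprints. With windows of 100 bp on each side of an end there were 438 members with a median of 31, of which 12.33% had both edges at annotated ends and 75.11% covered both footprints, and 96.56% of pairs were tail to tail. With 1 canonical transcript per gene there were 721 members, 35.92% of them over both footprints, and with any base of the peak in both windows 28.88% were. The share with a core signal on both strands was 3.855% for signals 15 to 35 bases upstream, 14.06% for any of 12 hexamers at 10 to 40 bases, 45.12% for these within 100 bases and 1.058% when searched from the summit. Both edges lay at annotated ends in 2.041% within 10 bp and in 8.012% within 50 bp, and 34.24% covered both footprints within 50 bp. In peaks of 100 to 150 bp, a limit chosen after seeing the data, the member median was 19 (14 in 1-strand peaks). Every other value under the alternatives stayed within the interval of the value reported or, for the number of members, within 1.5 times, and the order of the medians of members and 1-strand peaks held under the 3 limits on strength and width. Leaving out peaks with a genomic A stretch on both strands and no hexamer on either left out no member. Few members could meet this condition. At least 7 A in the 10 bases past the edge occurred on both strands in 2 members, and 136 had no hexamer on either strand. Priming inside transcripts was therefore not tested by it. No paired analysis was possible because peaks were found on pooled reads of all libraries, and for the same reason no replicate could be left out. The list gives no strand, so which gene's reads make up a member, and whether they changed with CDK12 or CDK13 knockdown, was not tested; counting intervals do not cover differences between cultures.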
